A study of Homo sapiens with 2 samples.

Results

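The cells described here are the 196 SH-SY5Y cells with the most RNA counted in them, out of 1920 kept cells and 2879 barcodes. They were chosen by their own counts: a cell was a member if it held at least 10000 gene UMIs (unique molecular identifiers, each standing for 1 captured transcript). SplitA gave 77 members of 829 kept cells, 9.29% (exact binomial 95% interval 7.40% to 11.5%), and SplitB gave 119 of 1091, 10.9% (9.12% to 12.9%). The members held 19.0% of the UMIs of the kept cells. They were compared, each flask apart, with the 438 cells of SplitA and 541 cells of SplitB that held 4000 to 7000 UMIs, called comparison cells below.

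SH-SY5Y is a neuroblastoma cell line of adrenergic type, which keeps genes of the sympathetic neuron and of the adrenal chromaffin cell: transcription factors such as HAND2 and GATA3, enzymes that make noradrenaline, and proteins of dense-core secretory granules. The cells were untreated and had not been synchronized. One culture of the line was split into the flasks SplitA and SplitB, which were tagged with 1 hashtag antibody each and pooled into 1 droplet run, so the flasks are 2 samples of one condition and one culture. The labels call both flasks the same split and tell them apart by the hashtag, and they and the study's methods describe the confluence at harvest differently.

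Total mRNA differs between cells of one culture because cells grow before they divide, because cell types differ in size, and because a droplet can capture more or fewer of the transcripts of a cell. When a cell grows, most mRNAs rise roughly with its total, while some rise more and some less. The hashtag antibodies of this kind bind surface proteins that nearly all human cells carry, ATP1B3 (CD298) and beta-2-microglobulin (B2M), and their oligonucleotides are counted beside the mRNA of the same cell. They give a measure of each cell that does not enter the total of gene UMIs. The barcodes of the hashtags are shown because the counts of these oligonucleotides carry much of what follows, with capitals marking the whole of the barcode that was counted.
Hashtag-1, SplitA: GTCAACTCTTTAGCG
Hashtag-2, SplitB: TGATGGCCTATTGGG

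The UMI total, the number of genes, the mitochondrial share and limits on the hashtags entered the choice of cells and are given as description. Members held a median of 11867 UMIs in SplitA and 11717 in SplitB, with a highest value of 27205 and 27006. Comparison cells held 5623 and 5663. The mean total per cell was 2.31 times that of the comparison cells in SplitA and 2.32 times in SplitB. Next to the limit, 15 cells of SplitA and 31 of SplitB held 9500 to 10000 UMIs, and 14 and 23 held 10000 to 10500. The own hashtag median of these neighbours was 1476 just below and 1807 just above the limit in SplitA, and 1378 and 1450 in SplitB. Summed over cells, members gave 997165 and 1545131 UMIs, and comparison cells 2453602 and 3032591.

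The members with the highest totals carried more hashtag than their total RNA alone would give. Per 1000 UMIs, comparison cells had a median of 176 own hashtag counts in SplitA and 180 in SplitB, cells of 7000 to 10000 UMIs 163 and 144, and cells under 4000 UMIs 197 and 221. The 47 and 74 members with the lowest totals, up to 12392 and 12368 UMIs, had 183 and 168, close to these values. The next 14 and 23, up to 14643 and 14319 UMIs, had 220 and 236, and those of at least 15000 had 351 and 305. The median count of a cell's own hashtag was 955 in comparison cells of SplitA, 1288 at 7000 to 10000 UMIs and 2456 in members. In SplitB it was 978, 1167 and 2543. From comparison cells to members the hashtag median was thus 2.57 and 2.60 times as high, where the UMI median was 2.11 and 2.07 times as high. From comparison cells to cells of 7000 to 10000 UMIs the order was the other way, at 1.35 and 1.19 times for the hashtag and 1.43 times for UMIs in both flasks. Within the members the counts were highest at the top of the range, where the 16 cells of SplitA with at least 15000 UMIs had a median of 6110 hashtag counts, and the 22 of SplitB had 5834.5. The hashtag of the other flask had a median of 81 in members of SplitA and 24 in those of SplitB, against 69 and 19 in comparison cells, values that the limit on this hashtag caps.

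Members were not uniform in this measure. Set against the comparison median of the same flask, 68 members (34.7%) had at most 2 times as many own hashtag counts, and 50 (25.5%) had more than 4 times as many. No comparison cell was above 4 times, and 27 of 438 in SplitA and 17 of 541 in SplitB were above 2 times. These bands were set after the hashtag counts had been seen.

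**Figure D1:**
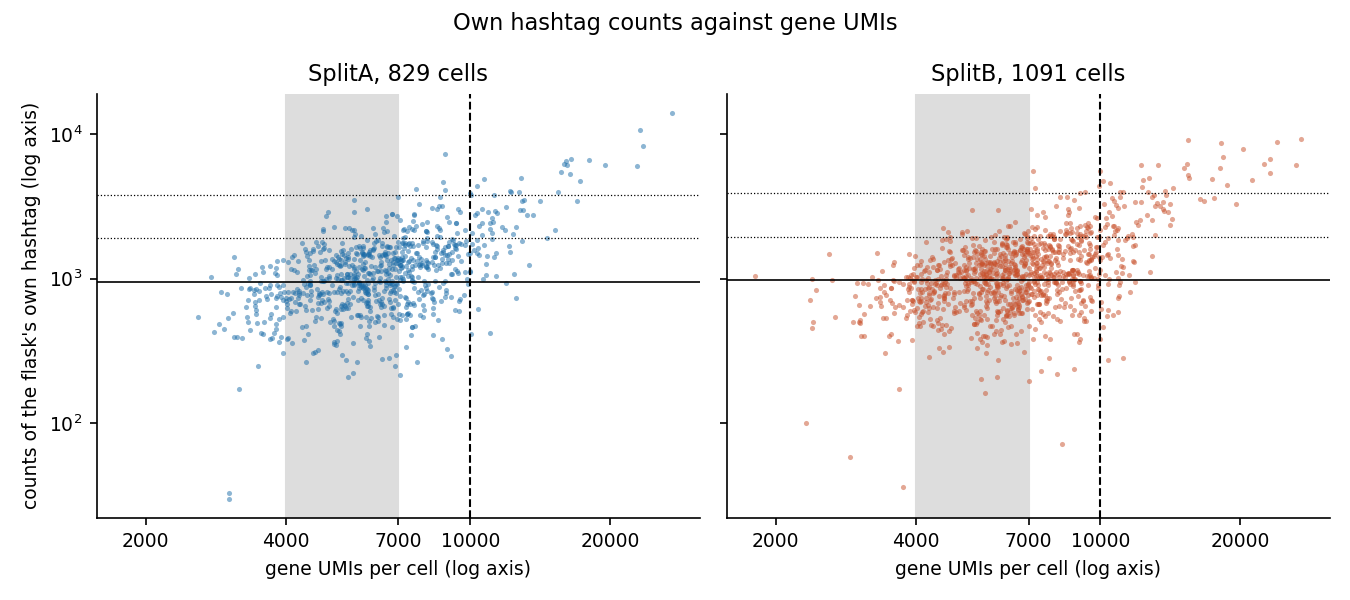
Each point is 1 kept cell, with gene UMIs on the x axis and counts of the hashtag of its flask on the y axis, both logarithmic. The grey band marks 4000 to 7000 UMIs, the dashed line 10000, the solid line the comparison median of the flask and the dotted lines 2 and 4 times that median. In both flasks hashtag counts are higher toward the right, with members spread from below the solid line to above the upper dotted line.

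Barcodes that hold more than 1 cell are one way to reach a high count, and they were counted as far as hashtags allow. Of the 211 barcodes with at least 10000 UMIs that passed the limits on genes and mitochondrial share, 15 were assigned to neither flask, 7.11% (4.03% to 11.5%), and all 15 had both hashtags above the limit set for the other flask's hashtag. At 4000 to 7000 UMIs the share was 19 of 998, 1.90% (1.15% to 2.96%), and at 7000 to 10000 it was 27 of 608, 4.44% (2.95% to 6.40%). Pairs of cells from the same flask cannot be told from single cells by hashtags. At the flask proportions of this range, random pairing would put 16.4 same-flask pairs beside the 15 that were seen. Scrublet, which scores doublets from simulated pairs, called 10 of 1982 barcodes, 2 members of SplitA and 1 of SplitB among them, and so marked too few to settle this. The 15 barcodes with both hashtags were left out of every comparison.

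Members carried the markers of SH-SY5Y cells. PHOX2A, HAND2, GATA3, ISL1, DBH and ELAVL4, transcription factors, an enzyme and an RNA-binding protein of noradrenergic neuroblastoma, had 183 to 555 UMIs each in members of SplitA and 272 to 922 in SplitB. TH, the first enzyme of catecholamine synthesis, was close to absent, with 3 and 5 UMIs in members and 4 and 2 in comparison cells. The defining markers of other cells were at or near 0. The summed list of Schwann cells and glia stood at 6.02 CPM in SplitA and 7.12 CPM in SplitB, against 7.74 and 5.94 CPM in comparison cells, with S100B its most abundant gene. The summed leukocyte list stood at 0 and 1.29 CPM, the epithelial and endothelial list at 1.00 and 5.18 CPM, and the red cell list at 0 in both flasks. Of the 9 leukocyte markers, CD14 alone had UMIs in members, 2 in SplitB. SOX10, GFAP, MBP and FOXD3 of Schwann cells and glia, and COL1A2, DCN and PRRX1 of fibroblasts, had none. The summed fibroblast list stood at 239 CPM (summed counts scaled to a total of 1000000) in members of SplitA against 246 in comparison cells, and at 242 against 272 in SplitB. TWIST1 made up most of it, a gene that neuroblastoma cells also express.

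Of 33538 gene identifiers, 3451 had at least 100 UMIs over members and comparison cells in each flask. Most of them followed the total. The median log2 ratio of CPM, members against comparison cells, was -0.02 in both flasks, and the middle 90% of genes lay between -0.62 and 0.58 in SplitA and between -0.56 and 0.50 in SplitB. A gene is called higher or lower here where its CPM differed by at least 1.5 times in the same direction in both flasks. By that limit 48 genes were higher, 1.39% of those tested, and 65 were lower, 1.88%. Because the cells were chosen by their counts and cells are not replicates, no p-value was computed, and the intervals given are exact conditional binomial ones that cover counting error only. Of the 48 higher genes, 18 had at least 100 UMIs in the comparison cells alone in each flask, against 57 of the 65 lower ones, so low genes could pass the filter through the members. Scaling shifted the split: with TMM factors 25 genes were higher and 132 lower.

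**Figure D2:**
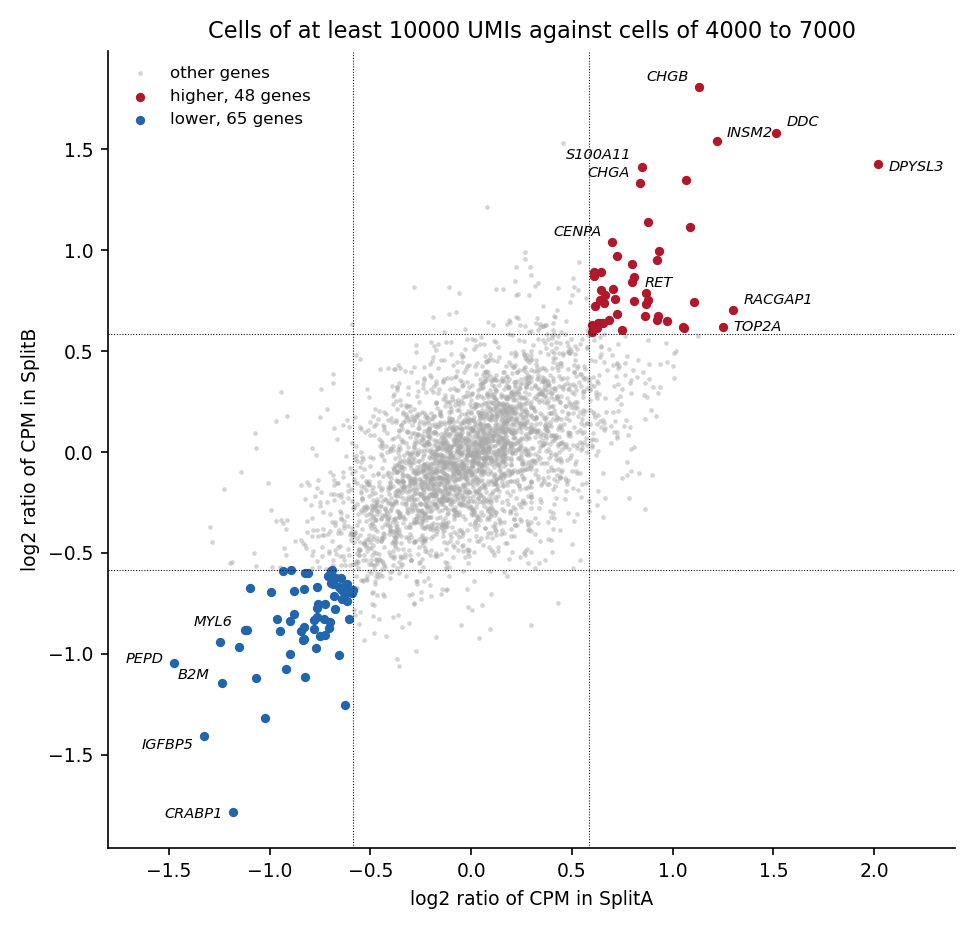
Each point is 1 of 3451 genes, with the log2 ratio of CPM, members against comparison cells, in SplitA on the x axis and in SplitB on the y axis, and dotted lines at 1.5-fold. Red points are the 48 genes higher and blue points the 65 genes lower in both flasks, with DDC, DPYSL3 and CHGB farthest to the upper right and CRABP1, IGFBP5, B2M and PEPD farthest to the lower left.

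Genes of catecholamine synthesis and storage were the list with the highest median over all members. That median was lower where cells with many hashtag counts were left out. The list holds 13 genes, of which 9 were tested, 3 were higher and none was lower. Of all tested genes 1.39% were higher. The median log2 ratio of the list was 0.47 in SplitA and 0.58 in SplitB. Its summed level went from 991 to 1449 CPM in SplitA and from 944 to 1508 CPM in SplitB. The median of the flasks' mean log2 ratio was 0.52, where all tested genes had -0.02. With both ranges held to cells of at most 2 times the comparison median of own hashtag it was -0.04. All tested genes had -0.09 in that setting. In cells at or below the flask's own median it was -0.19, where all tested genes had -0.20. Fewer genes of the list could be tested there: DDC and SLC18A1 had no value in the second setting, and in the first they had 0.64 and 0.37. DDC (ENSG00000132437; chromosome 7, 50458436 to 50565405 on the minus strand, GRCh38), the decarboxylase that turns L-DOPA into dopamine, had 66.0 CPM in comparison cells and 189 CPM in members of SplitA, and 80.8 and 242 CPM in SplitB. Its log2 ratio was 1.51 (1.20 to 1.83) and 1.58 (1.35 to 1.82). Per cell this was 0.370 against 2.44 UMIs in SplitA and 0.453 against 3.14 UMIs in SplitB, a rise of 6.60 and 6.94 times where total RNA rose 2.31 and 2.32 times. SLC18A1, a vesicular monoamine transporter, rose from 37.9 to 72.2 CPM and from 40.6 to 64.7 CPM. It had 93 UMIs in comparison cells of SplitA and passed the filter of 100 there with those of members. CYB561, which supplies electrons to the granule for the hydroxylase DBH, rose from 219 to 346 CPM and from 201 to 337 CPM. DBH itself, which makes noradrenaline, had log2 ratios of 0.57 and 0.77 and missed the limit in SplitA. QDPR, which regenerates the cofactor of TH, had 0.06 and 0.13.

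Granule proteins and peptides are stored beside catecholamines. Of 14 tested genes of this list 3 were higher, where 1.39% of all tested genes were, and none was lower. The list had a median log2 ratio of 0.21 and 0.26. The median of the flasks' mean log2 ratio was 0.25. Over the genes of the list still tested it was -0.07 after thinning to 4000 UMIs, where all tested genes had -0.08. Without cells over 4 times the comparison median of own hashtag it was -0.014, against -0.06 over all tested genes. At no more than 2 times it was -0.32 against -0.09, and at or below the flask's median -0.66 against -0.20. CHGB (ENSG00000089199; chromosome 20, 5911510 to 5925353, plus strand), a granin of the core of secretory granules, rose from 162 to 354 CPM in SplitA and from 114 to 399 CPM in SplitB. CHGA, its relative, rose from 315 to 563 CPM and from 246 to 619 CPM. The mean log2 ratio of CHGA was 1.09. It was 0.56 at no more than 2 times the comparison median of own hashtag and 0.57 at or below the flask's median. GAL, which encodes the neuropeptide galanin and was the most abundant gene of the list, rose from 1143 to 1887 CPM and from 1094 to 2145 CPM. NPY, another peptide of sympathetic neurons, did not go with them and had log2 ratios of -0.54 and -0.02.

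The 15 genes with the largest rise in both flasks also held genes of other kinds, given here one by one. Of those named in this paragraph, only RET and S100A11 had at least 100 UMIs in comparison cells alone in each flask. The others passed the filter with the UMIs of members, so their ratios are description only. DPYSL3, a cytoskeletal protein of the growth cone, had 19.6 and 18.8 CPM in comparison cells and 79.2 and 50.5 CPM in members, on 48 and 57 UMIs in comparison cells. CDH2 (N-cadherin) had log2 ratios of 1.07 and 1.35. ALCAM, an adhesion molecule of the immunoglobulin family, had 0.93 and 1.00. RET, the receptor tyrosine kinase for ligands of the GDNF family, had 55.4 and 52.8 CPM in comparison cells and 96.3 and 94.5 CPM in members. S100A11, a calcium-binding protein, had 84.8 and 86.4 CPM in comparison cells and 152 and 230 CPM in members. INSM2, a zinc-finger transcription factor of neuroendocrine cells, had log2 ratios of 1.22 and 1.54, and SHOX2, a homeobox factor, 0.88 and 1.14. THSD7A, KLHL13, DFFA and C1orf53 complete the 15 together with AMH, whose reads can be mixed with those of the gene SF3A2 just upstream. Their smaller log2 ratio of the flasks was 0.79 or more.

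Several of the higher genes were uneven among members by hashtag count. The bands of hashtag count differed in total RNA as well. From the lowest band to the highest, members had median totals of 10865, 11349.5 and 16108.5 UMIs in SplitA. In SplitB these were 10920, 11997.5 and 15425 UMIs, so the bands do not separate hashtag count from UMI total. In members with at most 2 times the comparison median of own hashtag, S100A11 stood at 32.2 CPM in SplitA (25 cells) and 44.6 CPM in SplitB (43 cells). In members at 2 to 4 times it stood at 198 and 272 CPM (32 and 46 cells), and in those over 4 times at 200.3 and 355 CPM (20 and 30 cells). CHGB had 143, 279 and 616 CPM in the 3 bands of SplitA and 61.6, 518 and 578 CPM in those of SplitB. DDC had 100.2, 144 and 314 CPM, and 115, 241 and 363 CPM. GAL had 766, 2667 and 1931 CPM, and 867, 2087 and 3410 CPM. RET had 32.2, 115 and 129 CPM, and 34.0, 108 and 136 CPM. For S100A11, RET and GAL the lowest band of members was below comparison cells of the same band in both flasks, and for DDC it was above them. CHGB stood at 126 and 111 CPM in those comparison cells, so its lowest band of members was above them in SplitA and below them in SplitB.

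The hashtag count went with the same genes outside the members. Comparison cells at 2 to 4 times the median had 436 and 396 CPM of S100A11 (27 and 17 cells), against 60.2 and 75.7 CPM in the other comparison cells. GAL had 3223 and 2752 CPM there, against 997 and 1037 CPM. Cells of 7000 to 10000 UMIs share no cell with the contrast that chose the higher genes. Among them, cells above 2 times the median had more of 33 of the 48 higher genes in both flasks than cells at or below it, 68.8%, where 36.3% of all 3451 tested genes did so. The median log2 ratio of the 48 genes in that contrast was 0.41 and 0.45, and that of all tested genes 0.04 and 0.06. Only 18 of the 48 had 100 UMIs in comparison cells alone in each flask. The others passed the filter with the UMIs of members, so these values over the 48 are description only.

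With both ranges held to cells of at most 2 times the median, an alternative added after the data had been seen, 2567 genes could be tested. Of these 12 were higher and 72 lower, and the median log2 ratio of all was -0.09. Members left in this setting had median totals of 10865 and 10920 UMIs, where all members had 11867 and 11717. Of the 48 higher genes 19 were still tested, 3 were past the limit and 10 kept their direction in both flasks. Of the 65 lower genes 57 were still tested, 21 were past the limit and 54 kept their direction. The direction of S100A11, RET and GAL turned in both flasks, with mean log2 ratios of -0.83, -0.62 and -0.32. The mean was -0.33 for CHGB and -0.081 for CYB561 as well, but there SplitB alone turned: CYB561 had 208 CPM in comparison cells and 218 CPM in members of SplitA, and 195 and 166 CPM in SplitB.

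**Figure D3:**
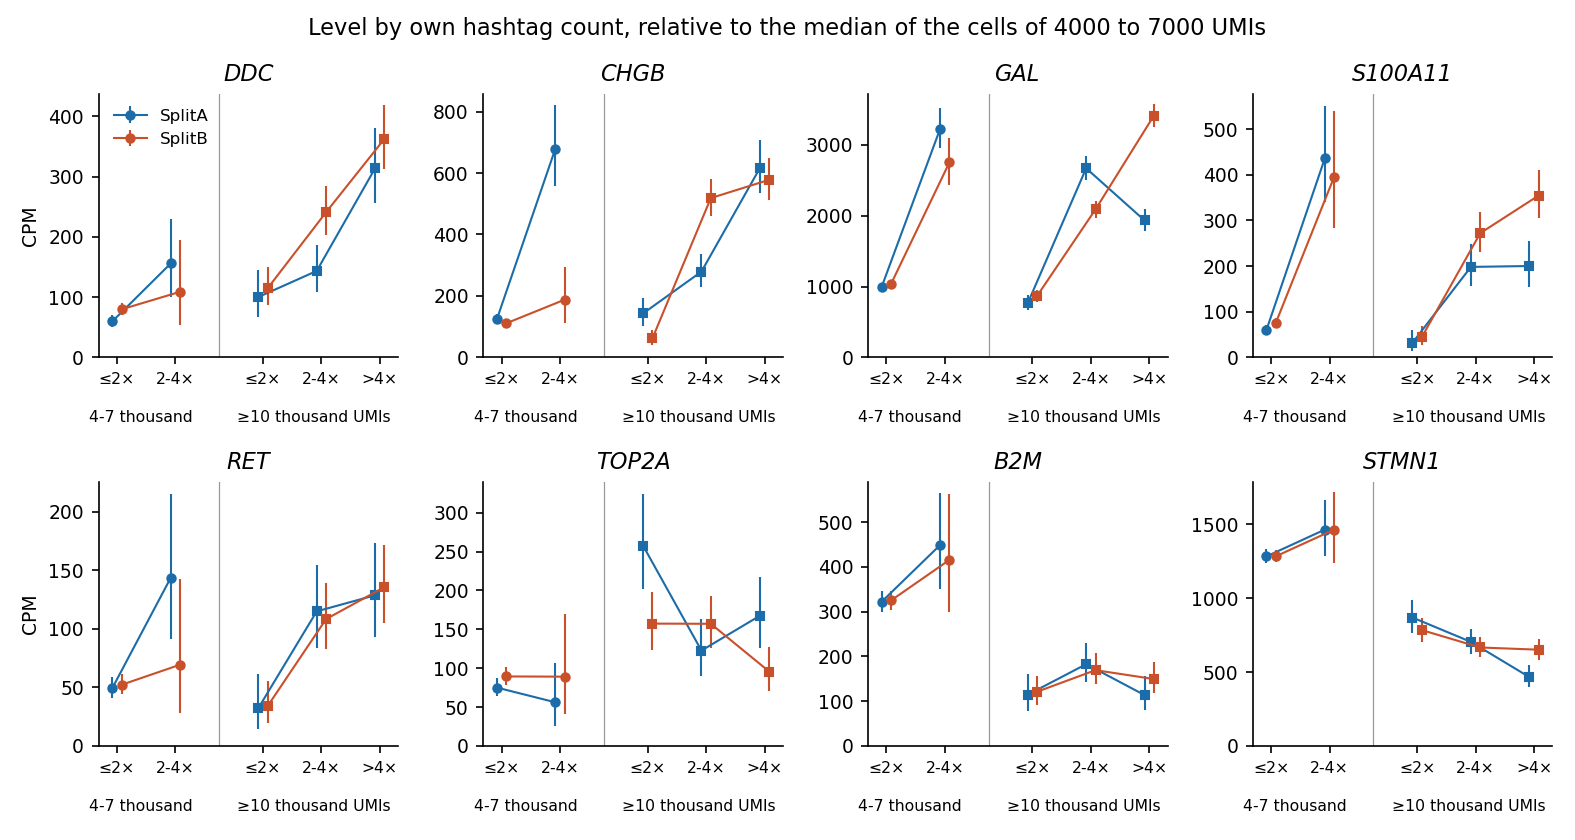
CPM of 8 genes (y axes from 0) in comparison cells (circles) and members (squares), by own hashtag count relative to the comparison median of the flask (x axis), with exact Poisson 95% intervals of the summed counts. DDC, CHGB, GAL, S100A11 and RET are higher in the upper bands of members, while B2M and STMN1 are lower in all 3 bands of members than in both bands of comparison cells.

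The UMIs of the same genes were also counted cell by cell within the members. The tenth of members with most S100A11 held 49.3% of its UMIs in SplitA and 53.5% in SplitB, and for CHGB the figures were 51.3% and 50.2%. STMN1, which was seen in most cells, had 23.8% and 26.1%. Members held 152 and 355 UMIs of S100A11, against 669 and 1078 of STMN1. Fewer UMIs gather in fewer cells by counting alone, so these shares cannot show unevenness beyond counting. After each cell had been thinned to 4000 UMIs, S100A11 was seen in 33.8% and 37.0% of members and in 12.8% and 12.4% of comparison cells, and DDC in 40.3% and 47.9% against 21.5% and 23.3%. All cells of the pool are of one line, so no gene here gives the share that free RNA of S100A11 or DDC would leave.

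Mitotic genes followed another course. Of 32 tested genes of the G2/M list 5 were higher, where 1.39% of all tested genes were, and none was lower. The list had a median log2 ratio of 0.44 in SplitA and 0.20 in SplitB. The median of the flasks' mean log2 ratio was 0.34, and it was -0.15 against cells of 7000 to 10000 UMIs. With members of at least 12000 UMIs it was 0.10. Over the genes of the list still tested, it was 0.60 at no more than 2 times the comparison median of own hashtag. All tested genes had -0.09 in that setting. In cells at or below the flask's own hashtag median it was -0.0002, where all tested genes had -0.20. Within cells scored as G1, S and G2M from S and G2M genes it was -0.10, -0.16 and -0.23. All tested genes had -0.13, -0.10 and -0.05 within those cells. TOP2A, the topoisomerase of dividing cells, had 57.9 CPM in cells under 4000 UMIs of SplitA, 73.8 CPM in comparison cells, 174 CPM at 7000 to 10000 UMIs and 175 CPM in members. In SplitB it had 58.3, 89.4, 160 and 137 CPM. CDK1, the kinase that drives entry into mitosis, went from 26.1 to 51.1 CPM and from 23.1 to 36.2 CPM, and CENPA, the centromeric histone, from 42.0 to 68.2 CPM and from 33.6 to 69.2 CPM. PRC1 and RACGAP1, which act at the spindle midzone, were the others. TOP2A, CDK1, CENPA and PRC1 were about as high at 7000 to 10000 UMIs as in members. Against those cells the mean log2 ratios of TOP2A, CDK1, CENPA and PRC1 were -0.10, -0.062, -0.11 and -0.017. RACGAP1 had 30.8 and 28.4 CPM there and 50.1 and 31.7 CPM in members. The most abundant genes of the list were not raised: HMGB2 had log2 ratios of -0.09 and -0.37 and CKS1B -0.17 and -0.25.

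Phase scores at a fixed depth were computed beside these genes. With every cell thinned to 4000 UMIs, 26 of 77 members of SplitA were scored G2M, 33.8% (23.4% to 45.4%), and 39 of 119 of SplitB, 32.8% (24.4% to 42.0%). Comparison cells were at 17.6% in both flasks, with upper bounds of 21.5% or less. Cells of 7000 to 10000 UMIs were at 37.4% and 32.4%. Without thinning the values were 40.3% and 34.5% in members and 18.9% and 20.7% in comparison cells. With thinning to 2000 UMIs, members of SplitA were at 49.4% (37.8% to 61.0%) against 25.1% (21.1% to 29.4%) in comparison cells, while in SplitB the intervals overlapped, at 36.1% (27.5% to 45.4%) against 29.8% (25.9% to 33.8%). Among members, the G2M share was 52.0% and 32.6% in the lowest hashtag band, 28.1% and 37.0% in the middle one and 26.7% or less in the highest, on 20 to 46 cells each, with no steady order in SplitB. Genes of DNA replication, by contrast, had a median log2 ratio of -0.08 in both flasks, with RRM2, a subunit of ribonucleotide reductase, the 1 higher gene of 37 tested.

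**Figure D4:**
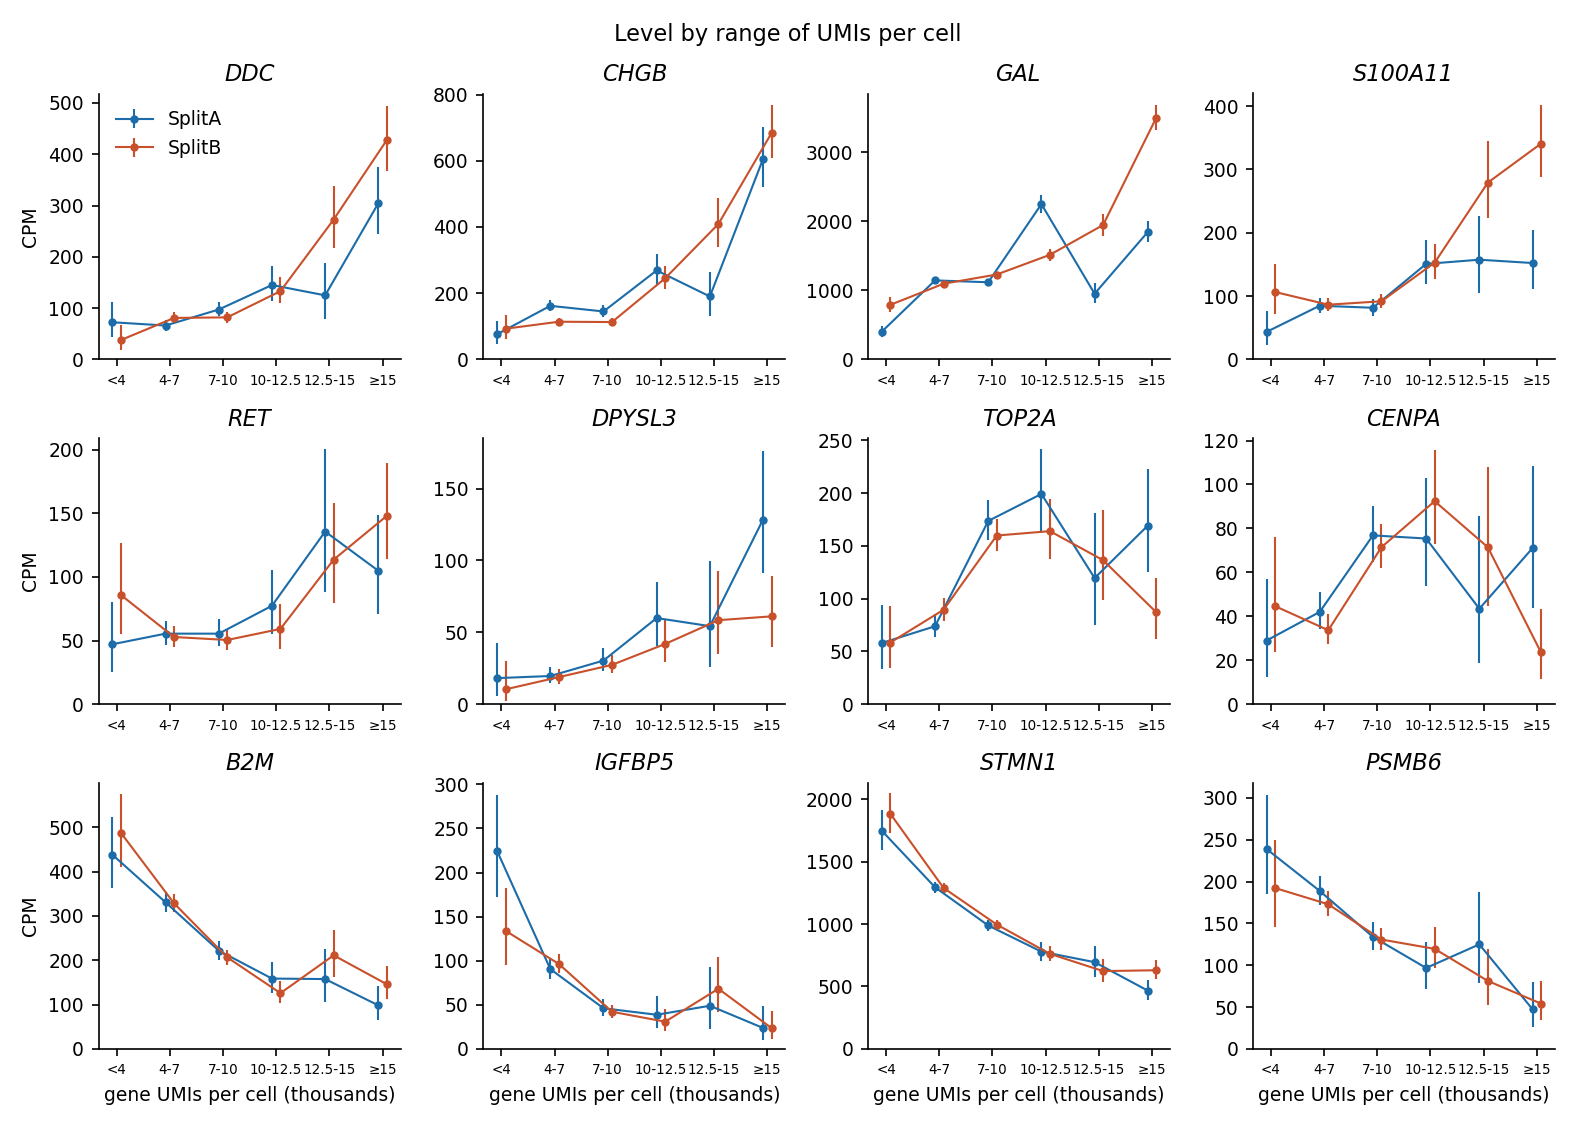
CPM of 12 genes (y axes from 0) in cells grouped by gene UMIs per cell (x axis, in units of 1000), with exact Poisson 95% intervals of the summed counts, for SplitA and SplitB. DDC, CHGB and DPYSL3 are higher in every range above 10000 UMIs than in any below it, TOP2A and CENPA are higher at 7000 to 10000 than in both ranges below, and B2M, IGFBP5, STMN1 and PSMB6 are lower in every range above 10000 than in comparison cells.

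Among the lower genes B2M and IGFBP5 were graded over all 4 ranges of cells. B2M (ENSG00000166710; chromosome 15, 44711358 to 44718851, plus strand), the light chain of MHC class I and a target of the hashtag antibodies, had 438, 331, 222 and 140 CPM over the 4 ranges of SplitA, from under 4000 UMIs to members. In SplitB it had 487, 328, 206 and 148 CPM. Its log2 ratio was -1.24 (-1.50 to -0.97) and -1.15 (-1.36 to -0.94). Per cell there were 1.85 B2M UMIs in comparison cells and 1.82 in members of SplitA, and 1.84 and 1.92 in SplitB, so the number per cell barely differed while total RNA rose 2.31 and 2.32 times. ATP1B3, the other target of the antibodies, had 48.1 and 58.4 CPM in comparison cells and 74.2 and 74.4 CPM in members, and was named after its values were seen. IGFBP5, a secreted binding protein of insulin-like growth factors, was the only tested gene with fewer UMIs per cell in members in both flasks, at 0.922 and 0.872 times the comparison cells. It went from 224 CPM under 4000 UMIs to 36.1 CPM in members of SplitA, and from 134 to 36.2 CPM in SplitB.

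The 15 genes with the largest fall were IGFBP5, CRABP1, B2M, SDC2, PEPD, MARCHF11, FAM241B, CHST8, ZMAT5, RTF2, STMN1, MYL6, PSMB6, SNRPC and SAP18. CRABP1, a cytosolic binding protein of retinoic acid, had log2 ratios of -1.18 and -1.78, and SDC2, a heparan sulfate proteoglycan of the cell surface, -1.07 and -1.12. PEPD, a dipeptidase that frees proline, had -1.47 and -1.04. STMN1, a microtubule-destabilizing protein and one of the most abundant genes here, fell from 1295 to 671 CPM and from 1290 to 698 CPM. MYL6, a light chain of non-muscle myosin, fell from 1157 to 532 CPM and from 1167 to 632 CPM. Outside the 15, STMN4 and TUBB2A, a relative of STMN1 and a tubulin, were lower as well, while TUBB and TUBA1B had log2 ratios between -0.26 and -0.11. ID2 and ID3, inhibitors of basic helix-loop-helix factors, had -0.76 and -0.82, and -0.70 and -0.84. The immediate early gene JUNB had -0.75 and -0.91.

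The lower level of B2M and MYL6 was seen in every hashtag band. In members of SplitA, B2M stood at 115, 183 and 114 CPM in the 3 hashtag bands, and in SplitB at 121, 169 and 149 CPM, all below the 322 and 325 CPM of comparison cells at or below 2 times the median. MYL6 stood at 483, 605 and 487 CPM, and at 599, 639 and 656 CPM, against 1145 and 1165 CPM in those comparison cells. In cells that share none with the main contrast, 7000 to 10000 against under 4000 UMIs, 56 of the 65 lower genes were lower in both flasks, 86.2%, where 40.4% of all tested genes were. Under 4000 UMIs the limit of 1000 genes removed 279 of 417 and 410 of 582 cells and the mitochondrial limit 59 and 87, so the 79 and 85 cells left are those with more genes. Of the 48 higher genes, 27 were higher in both flasks at 7000 to 10000 than under 4000 UMIs, 56.2%, against 25.6% of all tested genes. This share is description only, because 18 of the 48 had 100 UMIs in comparison cells alone and the others passed the filter with members. The cells of all ranges come from the same flasks and the same library.

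Of the lists with at least 10 tested genes, the proteasome had the lowest median against comparison cells. Of 32 tested, 4 were lower, where 1.88% of all tested genes were, and none was higher. The median log2 ratio was -0.38 in each flask, where that of all tested genes was -0.02. Its summed level went from 4104 to 3227 CPM in SplitA and from 4126 to 3328 CPM in SplitB. The median of the flasks' mean log2 ratio was -0.36, and it was -0.10 against cells of 7000 to 10000 UMIs. Against those cells, nuclear oxidative phosphorylation, at -0.19, G2/M genes, at -0.15, and nucleolar and ribosome biogenesis genes, at -0.13, were lower than the proteasome. Splicing factors, at -0.12, and G1/S and DNA replication genes, at -0.11, were lower than it as well. PSMB6, a catalytic subunit, fell from 189 to 87.2 CPM and from 173 to 93.8 CPM, and PSMC4, PSMB1 and PSMB3 were the others. SEM1 and PSMA7, the most abundant, had log2 ratios between -0.11 and -0.02. The 69 tested nuclear genes of oxidative phosphorylation had medians of -0.29 and -0.23, with NDUFC2, ATP5F1C and NDUFA5 past the limit. ATP5F1E, the most abundant of them, went the other way with 0.33 and 0.38. Splicing factors had 4 lower genes of 53, SNRPC, SNRPA, SF3B4 and SRSF3. TPI1 of glycolysis, with log2 ratios of -0.83 and -0.68, and the small heat shock protein HSPB1, with -0.70 and -0.59, were the lower genes of their lists.

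Ribosomal protein transcripts kept close to the total. All 79 cytosolic ribosomal protein genes were tested and none passed the limit, with medians of 0.00 and -0.02. They made up 37.1% of UMIs in comparison cells and 38.0% in members of SplitA, and 36.8% and 37.3% in SplitB. The elongation factor EEF1A1 had -0.03 and -0.05. The 13 mitochondrial genes are bounded by the limit of 15% on their share, and made up 8.49% of summed UMIs in comparison cells and 9.05% in members of SplitA, and 8.43% and 9.25% in SplitB. MALAT1, a nuclear long non-coding RNA, had 13939 and 13851 CPM in comparison cells and 12823 and 11801 CPM in members, and 8327 and 8108 CPM in cells of at least 15000 UMIs.

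The other lists held few genes past the limit, where 1.39% of all tested genes were higher and 1.88% lower. Translation factors had medians of -0.08 and -0.05 and nucleolar and ribosome biogenesis genes 0.07 and -0.03, with none of 36 and none of 25 past the limit. Nuclear pore, chromatin and large scaffold genes had 0.11 and 0.14, with none of 31 past the limit. Of 23 endoplasmic reticulum chaperones and translocon genes SEC61A1, the channel of the translocon, was the 1 higher gene, with log2 ratios of 0.86 and 0.67. Among 9 tested cyclins and CDK inhibitors of G1, CDKN2D, an inhibitor of CDK4 and CDK6, was higher, with log2 ratios of 0.64 and 0.89. Of 20 transcription factors of noradrenergic identity, INSM2 was higher and ID2 and ID3 were lower, while HAND2 had 0.17 and 0.20 and PHOX2A -0.42 and -0.30. S100A6, the most abundant of 5 tested S100 proteins and annexins, had 0.54 and 0.94 and missed the limit in SplitA.

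**Figure D5:**
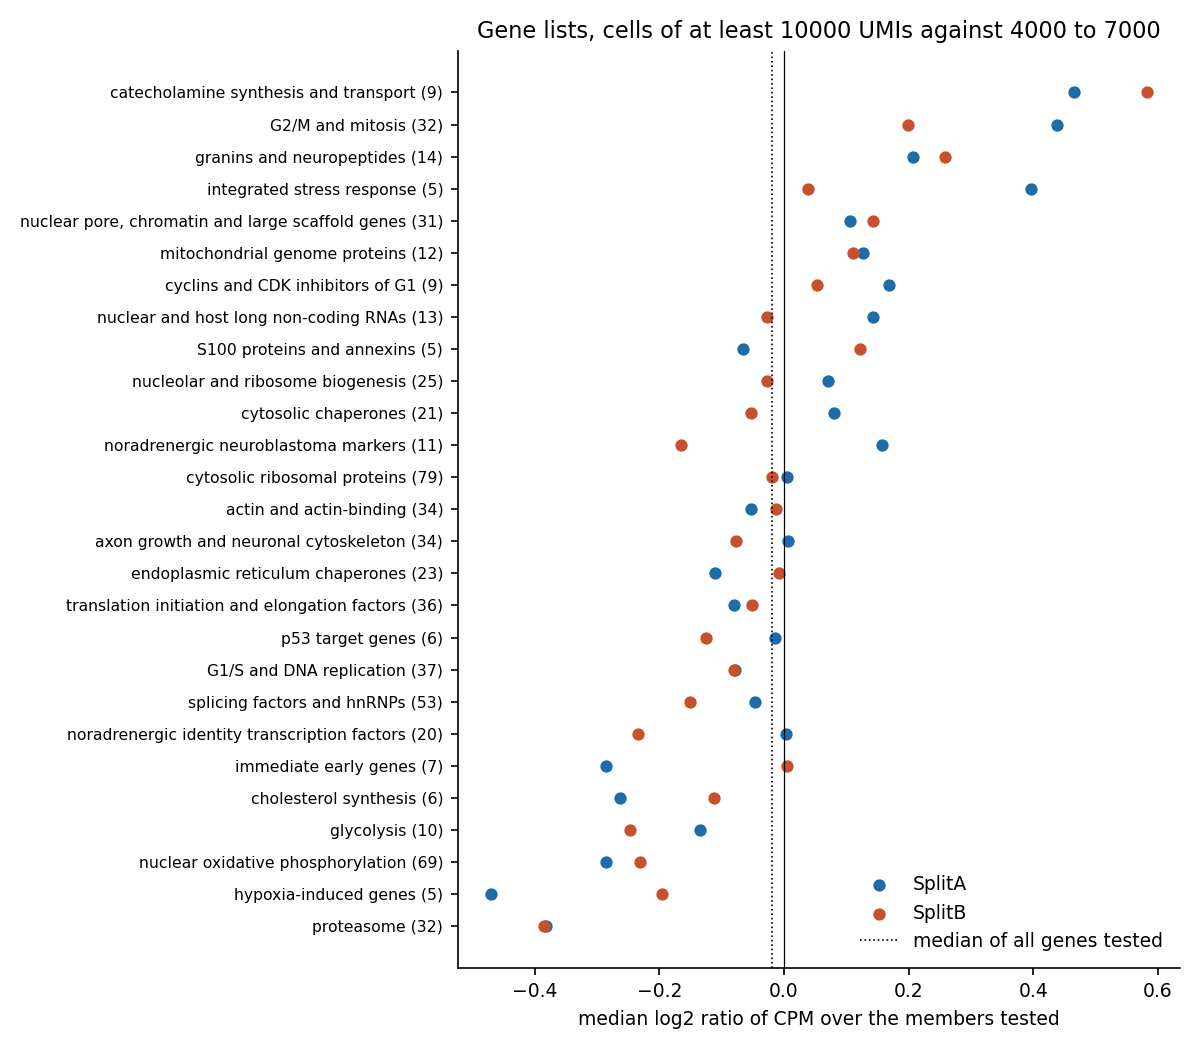
Median log2 ratio of CPM, members against comparison cells, over the tested genes of each list (their number in parentheses), for SplitA and SplitB, for lists with at least 5 tested genes. Catecholamine synthesis is at the top with 0.47 and 0.58, the proteasome near the bottom with -0.38 in both flasks, and ribosomal proteins lie close to the dotted line that marks the median of all tested genes.

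Diversity of expression differed little once depth was equal. At 4000 UMIs per cell, members showed a median of 1438 genes in SplitA and 1437 in SplitB, and comparison cells 1404.5 and 1423. The quartiles overlapped, 1337 to 1529 against 1328 to 1486 in SplitA and 1328.5 to 1521 against 1349 to 1498 in SplitB. Members of at least 15000 UMIs had medians of 1452.5 and 1516.5 at this depth. In SplitB this was above the upper quartile of comparison cells. Without thinning, the medians were 2930 and 2965 against 1769 and 1770.

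The 15 barcodes that carried both hashtags and at least 10000 UMIs give levels for known mixtures of cells in the same range. DDC stood there at 160 CPM (109 to 227, exact Poisson 95% interval), an interval that holds the 189 CPM of members of SplitA but not the 242 CPM of those of SplitB. CHGB stood at 196 CPM (139 to 269), which holds the 162 CPM of comparison cells of SplitA but neither the 114 CPM of those of SplitB nor the 354 and 399 CPM of members. S100A11 stood at 129 CPM (83.5 to 191), which holds the comparison values of both flasks, 84.8 and 86.4 CPM, and the 152 CPM of members of SplitA. RET stood at 103 CPM (63.1 to 160), close to the 96.3 and 94.5 CPM of members. B2M stood at 160 CPM (109 to 227), which holds the 140 and 148 CPM of members but not the 331 and 328 CPM of comparison cells. STMN1 stood at 501 CPM (406 to 611), below the 671 and 698 CPM of members and the 1295 and 1290 CPM of comparison cells. The part of unmarked same-flask pairs in any result was not tested.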

How the data were processed

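The authors pooled both flasks in 1 droplet run and mapped reads to GRCh38, with STAR 2.7 and Cell Ranger 4.0.0 in the submitters' notes, and deposited raw UMI counts of 33538 genes and 2 hashtags for 2879 barcodes, called from droplets by Cell Ranger; the annotation version is not given in the sources used here. Other deposited values are the hashtag barcodes. A cell belonged to a flask with 1 hashtag at least 3 times the other and the other at most 185 (1179 SplitA, 1605 SplitB, 95 neither), and was kept with 1000 genes and under 15% mitochondrial UMIs. No barcode was listed more than once. Barcodes assigned to neither flask were left out, and no other doublets were removed. Counts were summed per flask and range and scaled to CPM (depths in the text). With 2 flasks of one culture, no test was made. Thinning was random to 4000 or 2000 UMIs. Phases used 43 S and 54 G2M genes (scanpy 1.11.5, Scrublet expected rate 5%), TMM factors edgeR 4.0.16, other values Python 3.11.15, scipy 1.17.1, and positions GENCODE 44. Symbols were found for 33113 identifiers. Named genes are the 15 highest and 15 lowest by the smaller log2 ratio of the flasks, and the 3 most abundant and up to 4 past the limit in each direction of each of 34 lists; other names were added after seeing values. Members and lists were chosen with earlier results of these data known. The calling step was tested on simulated data. For a count of 0, 3 counts is a one-sided limit, below the upper end of the two-sided intervals.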

Additional observations from a re-analysis of the deposited data

How the results depend on the processing

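The 48 higher and 65 lower genes became 83 and 127 with members of at least 12000 UMIs, 25 and 3 against cells of 7000 to 10000 UMIs, 25 and 132 with TMM factors, 3 and 112 in cells of own hashtag at most the flask's median, 17 and 27 in S cells and 8 and 20 in G2M cells. They were 19 and 65 after thinning to 4000 UMIs, 23 and 49 with a hashtag limit of 100, 14 and 73 in G1 cells, 12 and 72 with own hashtag at most 2 times the comparison median, 15 and 56 without cells over 4 times, 16 and 48 without cells of at least 15000 UMIs and 18 and 57 with 100 UMIs required in comparison cells alone; the last 4 were added after seeing the data. Subsets of cells left fewer genes to test, 872 in G2M cells and 2129 after thinning. By definition of the limits, the counts were 236 and 340 at the looser fold limit, 6 and 6 at 2-fold, 140 higher at 50 UMIs, 16 and 40 at 200, and 873 and 369 with 1 UMI in each flask and range. With 1 flask alone, 173 to 205 genes were higher and 194 to 206 lower. All 48 and all 65 kept their direction with members of at least 9000 UMIs, each other scaling, the mean of each cell's CPM and no mitochondrial limit. In cells of own hashtag at most the flask's median the mean log2 ratio turned for CHGB (-0.75), GAL (-1.13) and CYB561 (-1.08); with own hashtag at most 2 times the comparison median it turned for CHGB (-0.33), S100A11 (-0.83), RET (-0.62), GAL (-0.32) and CYB561 (-0.081), for CHGB and CYB561 in SplitB alone, and against 7000 to 10000 UMIs for TOP2A (-0.10), CDK1 (-0.062), CENPA (-0.11) and PRC1 (-0.017). TMM factors moved the median of all genes from -0.02 to -0.12. It was -0.09 with own hashtag at most 2 times the comparison median and -0.20 with own hashtag at most the flask's median. The ratio of genes per cell was 1.02 at 4000 UMIs, 1.00 at 2000 and 1.67 without thinning. The mean G2M share of members was 33.3%, and, with comparison cells moving too, 42.7% at 2000 UMIs and 37.4% without thinning. At a hashtag limit of 100, barcodes of at least 10000 UMIs assigned to neither flask rose from 7.11% to 15.6% and those of 4000 to 7000 from 1.90% to 7.41%, with 40.8 same-flask pairs by random pairing in place of 16.4. At the limit of 10000 UMIs there were 197 members with no mitochondrial limit, 133 with one of 10% and 178 with a hashtag limit of 100. The cause of these moves was not tested, and the precision is that of 77 and 119 cells.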

Other observations

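Longer genes had higher ratios. With 3450 tested genes put into 5 equal groups by the exon length of the annotation, the median log2 ratio of members against comparison cells was -0.15, -0.11, 0.01, 0.08 and 0.11 in SplitA and -0.12, -0.09, 0.01, 0.03 and 0.06 in SplitB, from the shortest to the longest. Across genes, which share cells, library and depth and are not independent, Spearman's rho of log2 ratio and length was 0.28 and 0.23. Of 5 groups by the CPM of comparison cells, in the lowest of which genes could pass the filter through the members, the least abundant had -0.14 in its shortest and 0.23 in its longest genes in SplitA, and -0.12 and 0.11 in SplitB, while the most abundant had -0.12 and -0.05, and -0.06 and -0.07.

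The metallothioneins did not go one way in the flasks. MT2A, a metallothionein, had log2 ratios of 0.17 in SplitA and -0.40 in SplitB, and MT1X 0.10 and -0.71. MTHFD2, a target of the integrated stress response, had 0.72 and 0.10. BNIP3L, a mitophagy receptor induced by hypoxia, was lower in both, with -1.10 and -0.67.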
